A study of Arabidopsis thaliana with 16 samples.

Results

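Class III peroxidases are secreted, heme-containing enzymes of the plant cell wall, and 57 of their genes in Arabidopsis thaliana were listed by locus for this account. A gene was kept when it was the only gene paired with a probe set on the array, and 44 of the 57 met that condition, out of 13356 genes paired alone with a probe set in the whole series. Each of the 44 had 1 probe set. Another 5 genes lay on 3 probe sets shared by several genes and are described apart, and 8 genes (AT1G05240, AT1G05250, AT1G14540, AT3G32980, AT5G06720, AT5G22410, AT5G42180 and AT5G67400) were not analysed here. Gene names follow RefSeq where it gives one, and the other genes are called by locus.

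The study measured transcript levels in roots of 14-d-old seedlings of ecotype Columbia on 16 single-colour Affymetrix arrays, each hybridised with biotin-labelled cRNA. Wild type and a knock-down line in which RNA interference targets HRE1, an ethylene response factor gene induced by low oxygen, were each sampled after 6 h of normoxia and after 6 h at 3% oxygen, with 4 arrays per group labelled as biological replicates. Hypoxic seedlings were kept in the dark with their roots in a sucrose-containing medium, and the light and oxygen of the normoxic seedlings are not spelled out in the labels. Low oxygen and darkness therefore cannot be told apart here, and hypoxia below stands for the treatment as a whole. Sample titles name the line HRE1-RNAi20 while most descriptions name RNAi21 to RNAi24, so the 4 HRE1-RNAi replicates cannot be assigned to a single RNAi line. The labels do not give the promoter of the RNAi construct or say whether plants were pooled. No probe set was paired with HRE1, so its own level, the usual check of such a line, was not analysed here.

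Peroxidases of this family work in opposite directions in the wall. With hydrogen peroxide they oxidise monolignols and the tyrosines of extensins, which cross-links and stiffens the wall, while in another cycle they release oxygen radicals that loosen it. In roots they are known for root hair growth, for lignin in the xylem and the Casparian strip of the endodermis, and for defence. Part of their hydrogen peroxide comes from the superoxide made by respiratory burst oxidases.

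Each deposited intensity had been scaled so that the mean of an array, leaving out 2% of probe sets at each end, was 500. Array medians ran from 166.3 to 206.5, and pairwise correlations of the log2 values from 0.9167 to 0.9782. The medians were lower in hypoxia in wild type, at 174.45 ± 3.98 against 186.5 ± 5.6 in normoxia (SD, n = 4, exact permutation p = 0.0286). In HRE1-RNAi they were 175.15 ± 10.94 and 190.2 ± 11.5 (exact permutation p = 0.114). HRE1-RNAi replicate 4 stood apart in both conditions: its array weights, which are 1 for a typical array, were 0.415 in normoxia and 0.405 in hypoxia. The 25S ribosomal RNA control, on the log2 scale, rose with hypoxia from 11.02 ± 1.24 to 13.91 ± 0.19 in wild type (SD, n = 4, exact permutation p = 0.0286, the smallest that 4 against 4 arrays allow), and was 10.23 ± 1.62 and 13.21 ± 1.62 in HRE1-RNAi (exact permutation p = 0.0857, two-sided). Neither line showed a difference past the threshold in the 3' to 5' ratio of control probe sets (exact permutation p = 0.657 and 0.571). The part of the ribosomal control in the results below was not tested. Of markers of other tissues, none of the 4 listed for root was measured alone, and the shoot list had 1 of 9 measured, LHCB4.1, a light-harvesting protein, with mean intensities of 1541.2 and 1511.7 in normoxic wild type and HRE1-RNAi roots and 770.9 and 829.4 in hypoxia, a fall called in both lines whose part in the results was not tested.

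In hypoxia the peroxidase genes split into a rising and a falling group. In wild type 12 of the 44 genes were called higher and 12 lower, where a call is an adjusted p below 0.05 in limma, and 20 were not called. Over all 22746 probe sets tested, 7.20% were called higher, 10.6% lower and 17.8% in either direction, against 54.5% of the peroxidase genes. The list was drawn up with earlier results of these data known, so such shares, here and below, describe it and are no test of the family. The 22746 also hold 8730 probe sets without a gene in the probe table and 503 paired with several. In HRE1-RNAi 14 were called higher, 9 lower and 21 not, which is 52.3%, against 7.51% higher, 10.7% lower and 18.2% in either direction over all probe sets. The peroxidase probe sets were bright: 32 of the 44 lay at or above the median level of all probe sets. Among these 32, 19 were called in each line, while 26.4% of all such brighter probe sets were called in wild type and 26.9% in HRE1-RNAi.

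Counted without a model, 11 peroxidase genes in wild type had every hypoxic array above every normoxic array and 12 had every hypoxic array below. The same held for 9.07% and 13.0% of all probe sets. In HRE1-RNAi these counts were 12 and 7, against 7.93% and 11.5%. The median change of the 44 genes was -0.19 on the log2 scale in wild type and -0.04 in HRE1-RNAi, where all probe sets had -0.06 and -0.06. With arrays centred on their medians all probe sets had 0.03 and 0.05, so the sign of that background depends on the scaling. Leaving out single arrays kept the wild type median below 0 (-0.26 to -0.14), while that of HRE1-RNAi ran from -0.11 without hypoxic replicate 3 to 0.07 without normoxic replicate 2, and was 0.07 with arrays centred on their medians, so it has no settled sign. Both lines called 12 genes higher and 8 lower, 17 were called in neither, 4 were called (all lower) in wild type but not in HRE1-RNAi, and 3 the other way round. The hypoxia contrasts of the lines share no arrays, and over the 44 genes the responses had a Pearson r of 0.971, a description across genes that share arrays. Since whole roots were profiled, fewer cells of a type and less RNA per cell cannot be told apart for any gene described here.

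**Figure D1:**
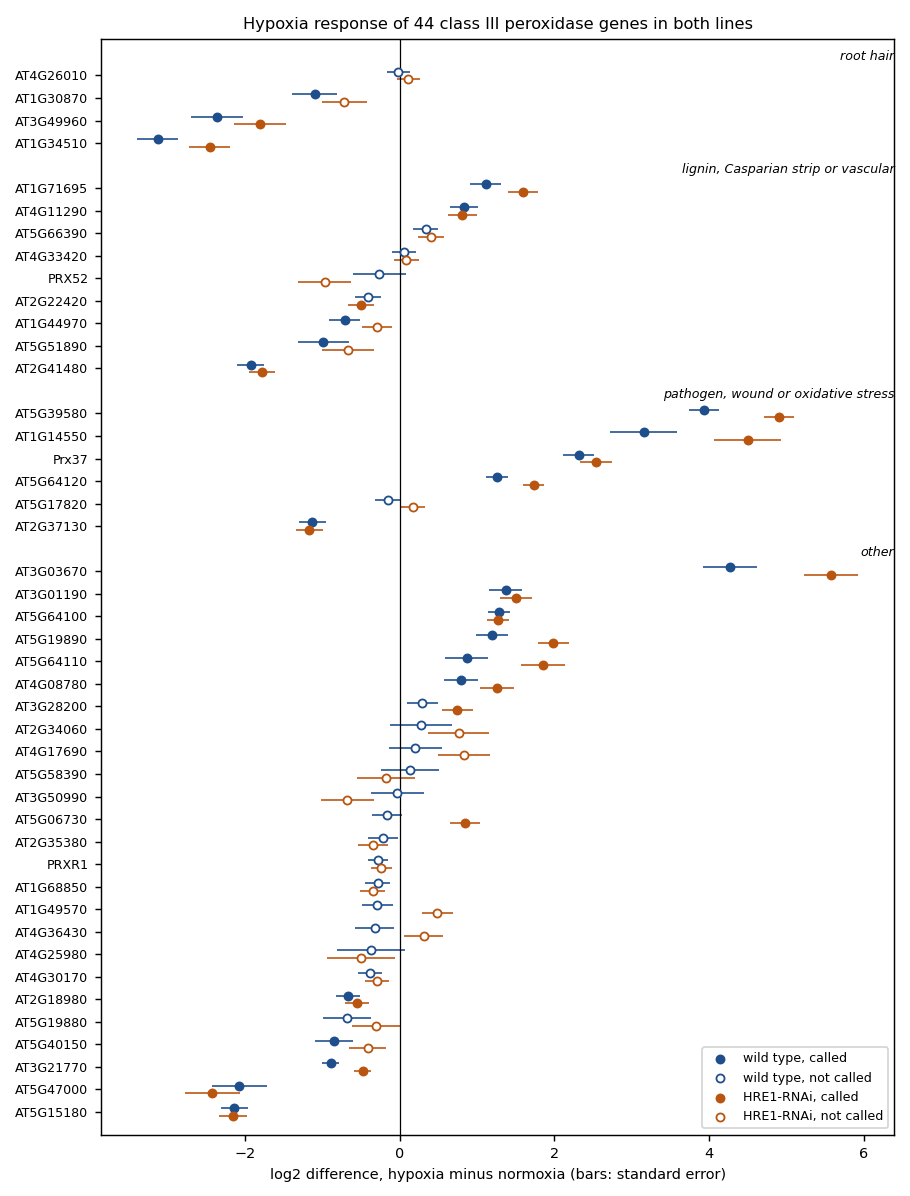
Log2 difference in intensity between hypoxia and normoxia for 44 class III peroxidase genes, by role, in wild type (blue) and HRE1-RNAi (orange); bars are standard errors, and filled points passed an adjusted p below 0.05. AT3G03670 (4.27 and 5.57) and AT5G39580 (3.94 and 4.90) lie farthest to the right, AT1G34510 (-3.13 and -2.45) farthest to the left.

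Of the 6 measured genes linked in earlier work to pathogens, wounding or oxidative stress, 4 rose in both lines, 1 fell in both and 1 was not called. AT5G39580 was low in normoxia, with 161.2, 156.7, 125.0 and 124.8 in wild type and 98.3, 89.6, 129.9 and 107.5 in HRE1-RNAi. In hypoxia it gave 2980.7, 1816.5, 3589.6 and 1675.5 in wild type and 3457.9, 3437.4, 3290.3 and 4367.8 in HRE1-RNAi. All hypoxic arrays were far above all normoxic arrays, in both lines. Its log2 rise was 3.94 ± 0.19 (SE, adjusted p = 1.42e-12) in wild type and 4.90 ± 0.19 (adjusted p = 6.31e-14) in HRE1-RNAi, the smallest adjusted p of any peroxidase gene in each line.

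AT1G14550 read 28.2, 30.6, 27.9 and 27.1 in normoxic wild type and 644.4, 325.7, 648.8 and 147.0 in hypoxic wild type. In HRE1-RNAi it read 16.3, 21.9, 61.9 and 34.2 in normoxia and 891.2, 677.1, 736.2 and 2631.5 in hypoxia, where replicate 4 was far above the other arrays. Groups did not overlap in either line, and the hypoxic arrays scattered widely. The rise was 3.15 ± 0.43 (adjusted p = 2.36e-05) in wild type and 4.50 ± 0.43 (adjusted p = 2.61e-07) in HRE1-RNAi. Without HRE1-RNAi replicate 4 of both conditions the latter was 4.09 ± 0.39.

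Prx37, which alters wall phenolics and growth when overexpressed, stood at 784.9, 836.6, 850.5 and 842.4 in normoxic wild type and 4349.6, 5008.1, 4632.8 and 3051.4 in hypoxic wild type. Its HRE1-RNAi values were 594.6, 768.1, 1172.0 and 503.4 in normoxia and 4324.5, 5015.8, 4721.7 and 3241.7 in hypoxia. The hypoxic levels of the lines covered almost the same span. Prx37 rose by 2.32 ± 0.20 (adjusted p = 1.09e-08) and 2.54 ± 0.20 (adjusted p = 2.25e-09).

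AT5G64120 (PRX71), a gene induced by pathogens and by damage to the wall, rose less steeply but with little scatter. It gave 1233.2, 1092.7, 1039.8 and 1070.9 in normoxic wild type and 2810.7, 2897.5, 2790.1 and 2240.6 in hypoxic wild type. In HRE1-RNAi it gave 971.0, 895.7, 1070.0 and 690.1 in normoxia and 3147.7, 3232.0, 2606.7 and 3122.3 in hypoxia. The groups were fully apart in both lines, with log2 rises of 1.26 ± 0.14 (adjusted p = 3.12e-07) and 1.73 ± 0.14 (adjusted p = 1.92e-09).

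AT2G37130, a root peroxidase responsive to fungal infection, went the other way. Its normoxic intensities of 12344.4, 12597.4, 12421.3 and 11879.8 in wild type dropped to 4846.9, 6949.3, 4607.4 and 6475.4. HRE1-RNAi arrays read 14550.7, 13268.4, 18043.6 and 11378.9 in normoxia and 6257.9, 8258.6, 7254.9 and 4135.6 in hypoxia. No hypoxic array reached a normoxic one, and the change was -1.13 ± 0.18 (adjusted p = 5.36e-05) in wild type and -1.17 ± 0.18 (adjusted p = 3.13e-05) in HRE1-RNAi. AT5G17820 had means of 3174.5 and 2855.0 in wild type and 3287.7 and 3736.6 in HRE1-RNAi, normoxia before hypoxia, and was not called in either (-0.15 ± 0.16 and 0.17 ± 0.16).

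**Figure D2:**
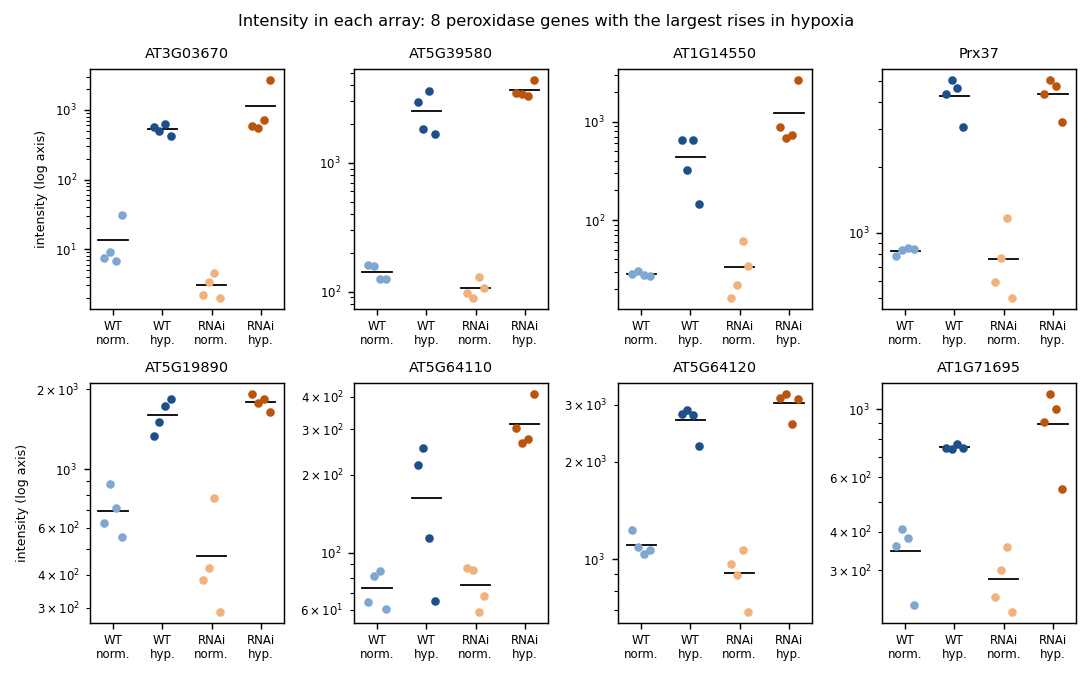
Intensity (log axis) in each of the 4 arrays per group for the 8 peroxidase genes with the largest rises in hypoxia; black lines are group means. Hypoxic arrays lie above normoxic arrays of the same line in every panel except for wild type AT5G64110, where 64.9 in replicate 4 falls within the normoxic range of 60.4 to 84.6.

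The 9 measured genes tied to lignin, the Casparian strip or vascular tissue did not move together. Wild type had 2 risers, 3 fallers and 4 genes without a call, and HRE1-RNAi 2 risers, 2 fallers and 5 without. The largest fall was that of AT2G41480 (PRX25), a peroxidase of stem lignin, from 795.5, 618.2, 870.8 and 688.5 to 187.0, 157.9, 203.5 and 183.7 in wild type. In HRE1-RNAi it went from 532.9, 608.5, 434.0 and 400.9 to 93.3, 142.9, 146.7 and 150.3. The conditions were well separated in each line, at -1.92 ± 0.17 (adjusted p = 1.27e-08) and -1.77 ± 0.17 (adjusted p = 4.13e-08).

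AT1G71695, expressed in vascular tissue, rose from 359.1, 409.4, 382.5 and 231.2 to 749.8, 739.2, 770.6 and 744.9 in wild type. HRE1-RNAi showed 245.1, 300.4, 356.2 and 220.2 in normoxia and 909.2, 1117.3, 1002.9 and 550.0 in hypoxia. Replicate 4 was lowest in 3 of these 4 groups, and the conditions did not overlap. The log2 rises were 1.12 ± 0.20 (adjusted p = 0.000232) and 1.59 ± 0.20 (adjusted p = 2.27e-06). AT4G11290, one of the peroxidases of Casparian strip lignin, rose from a mean of 796.8 ± 69.8 to 1430.0 ± 152.0 in wild type (SD, n = 4; 0.83 ± 0.18, limma adjusted p = 0.00205) and from 880.1 ± 301.0 to 1513.4 ± 285.5 in HRE1-RNAi (0.81 ± 0.18, limma adjusted p = 0.00234).

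AT5G51890, a peroxidase of developing xylem vessels, read 447.5, 374.9, 344.7 and 372.9 in normoxic wild type and 196.1, 213.8, 125.7 and 221.9 in hypoxia. Its HRE1-RNAi values of 337.3, 376.8, 584.7 and 189.0 in normoxia and 219.0, 392.5, 251.0 and 88.9 in hypoxia overlapped. The change was -0.99 ± 0.33 (adjusted p = 0.0443) in wild type, a call lost in 15 of 27 alternative fits, and -0.67 ± 0.33 (adjusted p = 0.196) in HRE1-RNAi. AT1G44970, another Casparian strip peroxidase, fell in wild type from 398.4 ± 26.6 to 238.6 ± 26.4 (SD, n = 4; -0.71 ± 0.20, limma adjusted p = 0.0148), a call lost when arrays were centred on their medians (limma adjusted p = 0.0576). In HRE1-RNAi its means were 428.9 and 340.9 (adjusted p = 0.385).

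AT2G22420 was lower in HRE1-RNAi (-0.50 ± 0.17, adjusted p = 0.0418, lost in 11 of 27 alternative fits), and in wild type its -0.41 ± 0.17 was not called (adjusted p = 0.105). AT5G66390 (PRX72), needed for lignin in stems and for the Casparian strip, had 0.34 ± 0.16 and 0.41 ± 0.16, neither called, though HRE1-RNAi was called in 3 of 27 alternative fits. AT4G33420, a xylem peroxidase, had 0.06 ± 0.16 and 0.09 ± 0.16. PRX52, which acts in fibre lignin, was dim, with group means between 23.1 and 52.1, and its -0.97 ± 0.34 in HRE1-RNAi had an adjusted p of 0.051. It was called in 8 of 26 alternative fits, with values from -0.45 to -1.68, and without replicate 4 of both conditions it was -1.37 ± 0.35 (adjusted p = 0.00634).

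Of the 4 measured genes assigned here to root hairs, 3 fell in wild type and 2 in HRE1-RNAi. Roles come from general knowledge, and genes placed in other groups, risers among them, may also act in root hairs. AT1G34510 had the largest fitted fall of a peroxidase gene. In HRE1-RNAi it stood next to AT5G47000, described below, which fell by 2.92 with a pseudocount of 1, more than AT1G34510 in any alternative (at most -2.69). It went from 975.8, 1018.2, 747.2 and 530.5 to 69.3, 114.7, 57.3 and 73.9 in wild type, and from 960.9, 1111.7, 1264.5 and 810.8 to 127.8, 228.8, 295.3 and 102.3 in HRE1-RNAi. The lowest normoxic array was well above the highest hypoxic one in each line, at -3.13 ± 0.26 (adjusted p = 9.46e-09) and -2.45 ± 0.26 (adjusted p = 3.33e-07).

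AT3G49960 followed, with 834.6, 869.6, 584.0 and 709.2 in normoxic wild type and 142.1, 183.2, 59.5 and 186.2 in hypoxia. HRE1-RNAi gave 821.5, 892.8, 961.0 and 551.7 and then 153.2, 313.0, 392.9 and 110.5. Conditions did not overlap, and the change was -2.35 ± 0.34 (adjusted p = 3.56e-05) and -1.80 ± 0.34 (adjusted p = 0.000585). AT1G30870 read 2001.1, 2118.1, 1327.2 and 1518.0 in normoxic wild type against 762.1, 1077.2, 522.2 and 908.1 in hypoxia. In HRE1-RNAi its 1866.4, 1973.6, 2111.5 and 1242.0 in normoxia overlapped with 640.9, 1576.6, 1746.5 and 736.4 in hypoxia. It fell in wild type (-1.10 ± 0.29, adjusted p = 0.0112), and in HRE1-RNAi its -0.71 ± 0.29 had an adjusted p of 0.106.

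AT4G26010, whose product promotes root hair growth together with other members of the family, did not follow the other genes of this group. Its wild type means were 1721.8 ± 342.2 in normoxia and 1705.7 ± 327.4 in hypoxia (SD, n = 4), and those of HRE1-RNAi 2101.2 ± 210.1 and 2276.4 ± 241.7. The differences of -0.01 and 0.11 had 95% intervals from -0.33 to 0.30 and from -0.20 to 0.43, so changes of 2-fold lie outside both.

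Root hair genes outside the family were measured for 3 of 18 listed, and all 3 fell in both lines. Over all probe sets 10.6% and 10.7% were called lower. The list was chosen with earlier results of these data known, so this fall is no separate support for that of the peroxidase genes. The wall-loosening expansins EXPA7 (-1.42 and -1.74) and EXPA18 (-1.35 and -0.86) and the xyloglucan-modifying XTH26 (-2.68 and -1.93, wild type before HRE1-RNAi) had adjusted p-values between 1.49e-06 and 0.00685. Their summed intensity per array ran from 1147.8 to 1686.7 in normoxic wild type and from 351.4 to 574.7 in hypoxia, and from 1567.2 to 1866.3 and from 362.7 to 992.5 in HRE1-RNAi, and none of the 3 was at 0. These genes fell beside the peroxidase genes above, and the part of root hair number or RNA content in that was not tested.

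**Figure D3:**
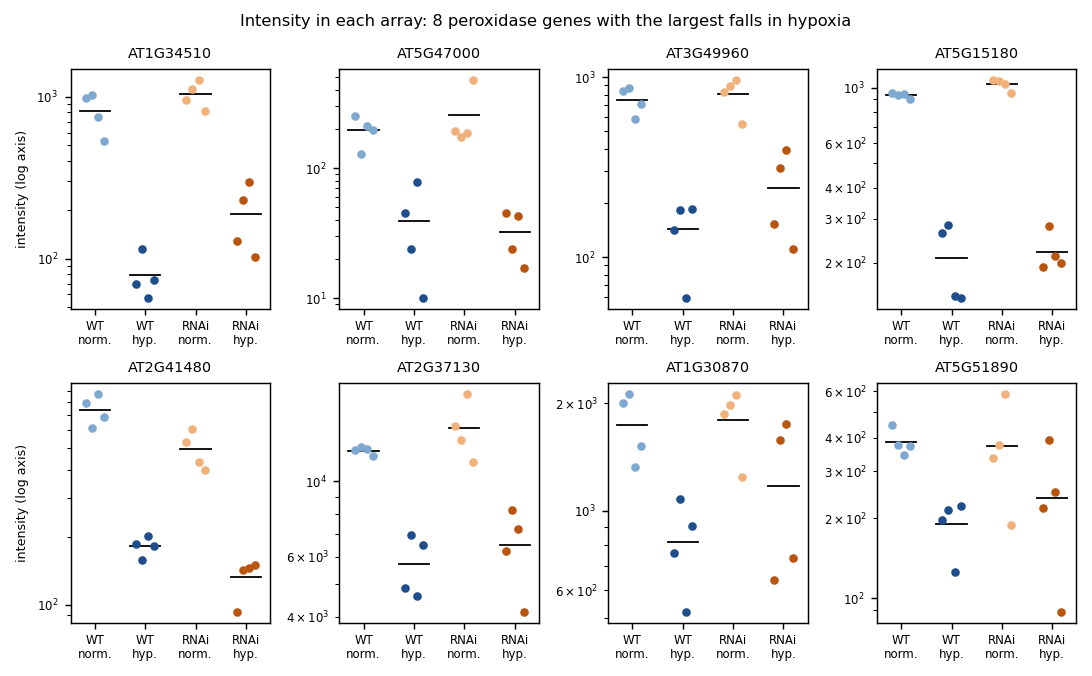
Intensity (log axis) in each of the 4 arrays per group for the 8 peroxidase genes with the largest falls in hypoxia; black lines are group means. The conditions are apart in wild type in all 8 panels, and overlap in HRE1-RNAi for AT1G30870 and AT5G51890.

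The other 25 genes have less settled roles. Wild type had 6 risers and 5 fallers among them, with 14 left uncalled, and HRE1-RNAi 8 risers and 4 fallers, with 13 left uncalled. AT3G03670 had the largest fitted rise, a rank that depends on the pseudocount. Its normoxic intensities of 7.4, 9.1, 6.7 and 30.9 in wild type and 2.2, 3.4, 4.6 and 2.0 in HRE1-RNAi were mostly below the pseudocount of 16 that was added to every value. Hypoxic arrays read 575.8, 501.9, 624.4 and 423.5 in wild type and 586.3, 552.6, 716.6 and 2673.1 in HRE1-RNAi, with replicate 4 again far above the rest. Groups were far apart, at 4.27 ± 0.35 (adjusted p = 6.48e-09) and 5.57 ± 0.35 (adjusted p = 7.4e-11). The size depends on the pseudocount: with 1 it was 5.45 and 7.82, and with 64 it was 2.94 and 3.84, below the lowest values of AT5G39580 in any alternative (3.58 and 4.44). Without HRE1-RNAi replicate 4 of both conditions the rise in that line was 5.02 ± 0.26.

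AT5G15180 fell almost equally in both lines. It read 954.7, 933.2, 947.6 and 900.9 in normoxic wild type and 262.5, 283.5, 147.2 and 145.4 in hypoxia, and 1071.5, 1067.5, 1033.8 and 955.2 in normoxic HRE1-RNAi and 193.2, 280.3, 213.2 and 199.3 in hypoxia. The conditions were far apart, at -2.13 ± 0.18 (adjusted p = 6.48e-09) and -2.15 ± 0.18 (adjusted p = 4.38e-09). AT5G47000 went from 251.7, 128.9, 209.7 and 194.7 to 45.2, 23.9, 77.5 and 10.1 in wild type. HRE1-RNAi gave 192.7, 174.3, 185.9 and 472.5 and then 45.1, 24.1, 43.1 and 17.2, without overlap. The change was -2.07 ± 0.35 (adjusted p = 0.000138) and -2.42 ± 0.35 (adjusted p = 1.9e-05), and with a pseudocount of 64 the wild type change was -1.36.

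AT3G01190 rose from a mean of 2325.6 ± 364.7 to 6094.3 ± 1488.6 in wild type (SD, n = 4) and from 2617.3 ± 871.8 to 7137.7 ± 839.2 in HRE1-RNAi, log2 changes of 1.37 ± 0.21 and 1.51 ± 0.21 that were called in both. AT3G21770 fell from 8235.1 ± 740.2 to 4432.9 ± 234.8 and from 6919.9 ± 534.5 to 4993.1 ± 600.9 (-0.89 ± 0.11 and -0.47 ± 0.11, limma adjusted p = 2.01e-06 and 0.0029), and the HRE1-RNAi call was lost when arrays were centred on their medians (limma adjusted p = 0.0536). AT2G18980 fell by 0.66 ± 0.16 and 0.55 ± 0.16 (adjusted p = 0.00378 and 0.0146), the latter lost in 4 alternative fits. AT5G40150 fell in wild type from 155.1 ± 56.3 to 75.5 ± 12.1 (limma adjusted p = 0.017), lost when normoxic replicate 1 or 3 or hypoxic replicate 3 was left out, with changes as small as -0.68.

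AT3G28200 and AT5G06730 were called higher in HRE1-RNAi and not in wild type. For AT3G28200 the changes were 0.75 ± 0.20 (adjusted p = 0.00967) and 0.30 ± 0.20 (adjusted p = 0.375). AT5G06730 read 191.6, 224.3, 212.3 and 157.9 in normoxic wild type, 190.5, 149.7, 187.0 and 164.7 in hypoxic wild type, 120.1, 178.4, 201.0 and 115.4 in normoxic HRE1-RNAi and 252.8, 237.4, 258.7 and 405.6 in hypoxic HRE1-RNAi. Wild type arrays of the 2 conditions overlapped in part, while the HRE1-RNAi arrays did not overlap. Its change was 0.85 ± 0.20 (adjusted p = 0.00297) in HRE1-RNAi, 0.57 ± 0.19 (adjusted p = 0.0413) without replicate 4 of both conditions, and -0.16 ± 0.20 in wild type.

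Several peroxidase genes sit side by side on the chromosome with no other coding gene between them in the RefSeq order, and their members were read one by one. On chromosome 4, Prx37 and AT4G08780 both rose. AT4G08780 went from 514.1, 612.0, 594.3 and 521.0 to 1025.1, 949.4, 876.6 and 1093.5 in wild type and from 373.5, 470.9, 578.9 and 181.7 to 902.0, 957.8, 821.6 and 959.3 in HRE1-RNAi. Its groups did not overlap, and its log2 rises of 0.80 ± 0.22 (adjusted p = 0.0113) and 1.26 ± 0.22 (adjusted p = 0.000143) stand beside 2.32 and 2.54 for Prx37.

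The pair AT5G19880 and AT5G19890 on chromosome 5 differed. AT5G19890 rose from 627.1, 878.0, 711.4 and 556.8 to 1328.2, 1501.1, 1723.1 and 1831.2 in wild type, and from 383.4, 424.8, 777.1 and 290.3 to 1913.5, 1768.3, 1838.5 and 1641.7 in HRE1-RNAi. Its conditions were fully apart, at 1.19 ± 0.21 (adjusted p = 0.000148) and 1.99 ± 0.21 (adjusted p = 1.37e-07). AT5G19880 was near the lower end of the scale, with 2.6, 35.5, 11.5 and 29.1 and then 2.1, 1.7, 4.2 and 11.5 in wild type, and 4.2, 10.8, 7.1 and 9.3 and then 8.4, 1.6, 2.3 and 1.5 in HRE1-RNAi. It was not called in either line (adjusted p = 0.148 and 0.602).

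In the run of AT5G64100, AT5G64110 and AT5G64120 on chromosome 5 all 3 genes were called higher in both lines. AT5G64100 gave 5382.4, 5214.4, 5488.7 and 4026.9 and then 11339.0, 13218.8, 13962.4 and 10552.2 in wild type. HRE1-RNAi gave 5663.4, 5010.3, 7102.0 and 4492.0 and then 14129.9, 15148.6, 12643.7 and 11432.9. Groups did not overlap, and the rises were 1.29 ± 0.14 (adjusted p = 4.55e-07) and 1.27 ± 0.14 (adjusted p = 4.89e-07).

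AT5G64110 was the least steady of the run. It read 64.5, 81.4, 84.6 and 60.4 in normoxic wild type and 218.4, 254.3, 113.5 and 64.9 in hypoxia, where replicate 4 stayed within the normoxic range. In HRE1-RNAi 87.0, 85.5, 59.1 and 68.2 became 303.4, 266.5, 275.7 and 410.2, with no overlap. The rise was 0.87 ± 0.28 (adjusted p = 0.034) in wild type, lost in 7 of 27 alternative fits with values down to 0.61, and 1.85 ± 0.28 (adjusted p = 2.91e-05) in HRE1-RNAi.

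**Figure D4:**
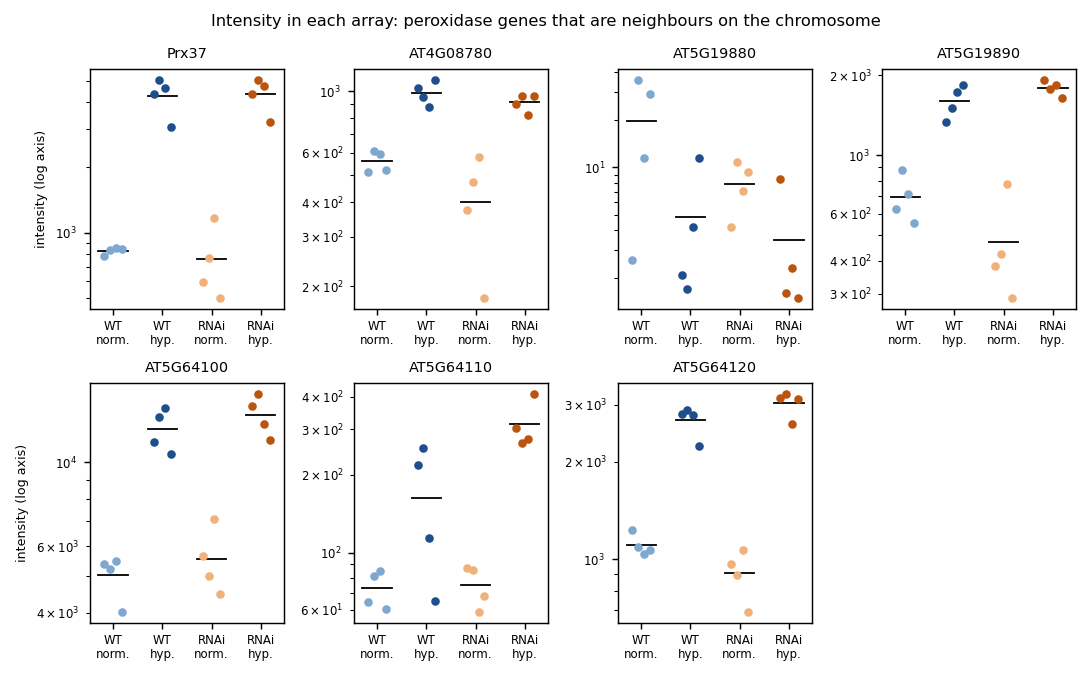
Intensity (log axis) in each of the 4 arrays per group for peroxidase genes that neighbour each other on the chromosome; black lines are group means. Prx37 and AT4G08780, and AT5G64100 to AT5G64120, are higher in hypoxia, while AT5G19880 stays at or below 35.5 beside a rising AT5G19890.

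Among the probe sets shared by several peroxidase genes, the one for AT4G37520 and AT4G37530 rose from 1655.7 to 4041.9 in wild type and from 1805.8 to 4367.2 in HRE1-RNAi (1.29 ± 0.22 and 1.28 ± 0.22, adjusted p = 0.000132 and 0.000132). The probe set of AT2G38380 and AT2G38390 (0.28 ± 0.15 and 0.23 ± 0.15) and that of AT2G18150 and AT2G18140 (-0.11 ± 0.24 and 0.52 ± 0.24) were not called. Signals of genes on a shared probe set cannot be told apart.

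For 11 of the 17 genes called in neither line, the 95% intervals of both changes lay within 2-fold. They include PRXR1, with group means between 19090.7 and 23184.6 and changes of -0.28 ± 0.13 and -0.23 ± 0.13, and AT4G30170, with group means between 7161.7 and 10370.0, whose -0.38 ± 0.15 in wild type was called in 7 of 27 alternative fits. Also among the 11 is AT5G58390, with group means between 11.2 and 16.1, near the pseudocount of 16. The pseudocount understates changes of dim probe sets, so the intervals of AT5G58390 do not bound its change. The intervals of the other 6 genes (AT2G34060, AT3G50990, AT4G17690, AT4G25980, AT5G19880 and PRX52) reached past 2-fold, and these were dim, with group means between 3.5 and 73.9. One of them, AT3G50990 (PER36), is known from the seed coat, where it acts in mucilage release.

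The comparison of the lines asked whether knock-down of HRE1 went with other peroxidase levels. It uses the same arrays as the hypoxia contrasts. No peroxidase gene was called in normoxia or in hypoxia, nor for the difference of the hypoxia responses, with limma and its adjusted p-values, and this covers the 7 genes called in 1 line only in the hypoxia contrasts. The smallest adjusted p of a peroxidase gene was 0.662, 0.664 and 0.768, and 5, 11 and 9 of the 44 genes had an unadjusted p below 0.05. Of all 22746 probe sets, 987, 1036 and 770 had an unadjusted p below 0.05. Calls were rare over all probe sets too, at 0.0264%, 0.0220% and 0.0176%. The 95% interval of the difference lay within 2-fold for 37 of 44 genes in normoxia, for 32 in hypoxia and for 19 in the difference of responses. A 2-fold difference between the lines cannot be set aside for the rest. Over all probe sets 79.7%, 79.6% and 58.4% had such an interval. The pseudocount understates changes of dim genes, so a narrow interval does not bound theirs.

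In normoxia every HRE1-RNAi array was above every wild type array for 1 peroxidase gene and below for 2, and 1.08% and 1.96% of all probe sets did the same. In hypoxia these counts were 5 above and 1 below, against 1.26% and 1.31%. The 5 were AT1G14550, AT4G17690, AT4G26010, AT5G06730 and AT5G64110, named after their values were seen. In normoxia the gene above was AT5G15180, and the second gene below was the dim AT3G03670. AT2G41480 was the 1 below in hypoxia and was also below in normoxia, with differences of -0.43 ± 0.17 and -0.58 ± 0.17 (limma adjusted p = 1 and 0.662).

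In hypoxia 35 of the 44 genes, or 79.5%, had a higher fitted level in HRE1-RNAi, with a median difference of 0.18, while 46.9% of all probe sets did, with a median of -0.01. Leaving out single arrays gave medians from 0.14 to 0.27 and 31 to 37 genes above 0. The 44 genes share the same 8 arrays and are not independent. In normoxia the median was 0.03, with 24 genes above 0, and its sign rested on single arrays: it was -0.10 with 14 genes above 0 without HRE1-RNAi replicate 3, -0.10 with 18 without wild type replicate 4, and -0.02 with 20 without HRE1-RNAi replicate 2. In the fit of all arrays the differences farthest from 0 in hypoxia were those of AT1G14550 (1.42 ± 0.43, adjusted p = 0.941), AT1G34510 (1.04 ± 0.26, adjusted p = 0.664) and AT5G64110 (1.02 ± 0.28, adjusted p = 0.802). Without HRE1-RNAi replicate 4 of both conditions they were 0.98 ± 0.36, 1.26 ± 0.24 and 0.89 ± 0.29, and AT1G34510 alone was then called (adjusted p = 0.036). PRX52, at -0.69 ± 0.34 with all arrays, was then at -1.04 ± 0.33, second in distance from 0.

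Of the 12 genes called higher in both lines, 10 had the larger rise in HRE1-RNAi, and of the 8 called lower in both, 5 had the smaller fall there. Both counts depend on HRE1-RNAi replicate 4. Without it in both conditions the difference of the responses turned to -0.06 ± 0.22 for AT3G01190, a riser, and to 0.06 ± 0.19 for AT2G37130, a faller. With all arrays the fitted difference of the responses was farthest from 0 for AT1G14550 (1.35 ± 0.61), AT3G03670 (1.31 ± 0.50), AT5G06730 (1.01 ± 0.28), AT5G64110 (0.99 ± 0.40) and AT5G39580 (0.96 ± 0.28), none called, with adjusted p-values from 0.768 to 1. The normoxic level of AT3G03670 lies below the pseudocount, which sets the size of its value. Without HRE1-RNAi replicate 4 of both conditions the first 2 were 0.94 ± 0.52 and 0.76 ± 0.35, and PRX52 was then farthest from 0, at -1.11 ± 0.46 against -0.71 ± 0.48 with all arrays, again not called. All probe sets had a median difference of responses of -0.004, with 49.3% above 0, against 72.7% of the peroxidase genes. The median difference of responses over the 44 genes was 0.32, and between 0.10 and 0.43 when single arrays were left out. The lower values were 0.10 without HRE1-RNAi normoxic replicate 4, and 0.17 and 0.19 without its hypoxic replicates 2 and 3.

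**Figure D5:**
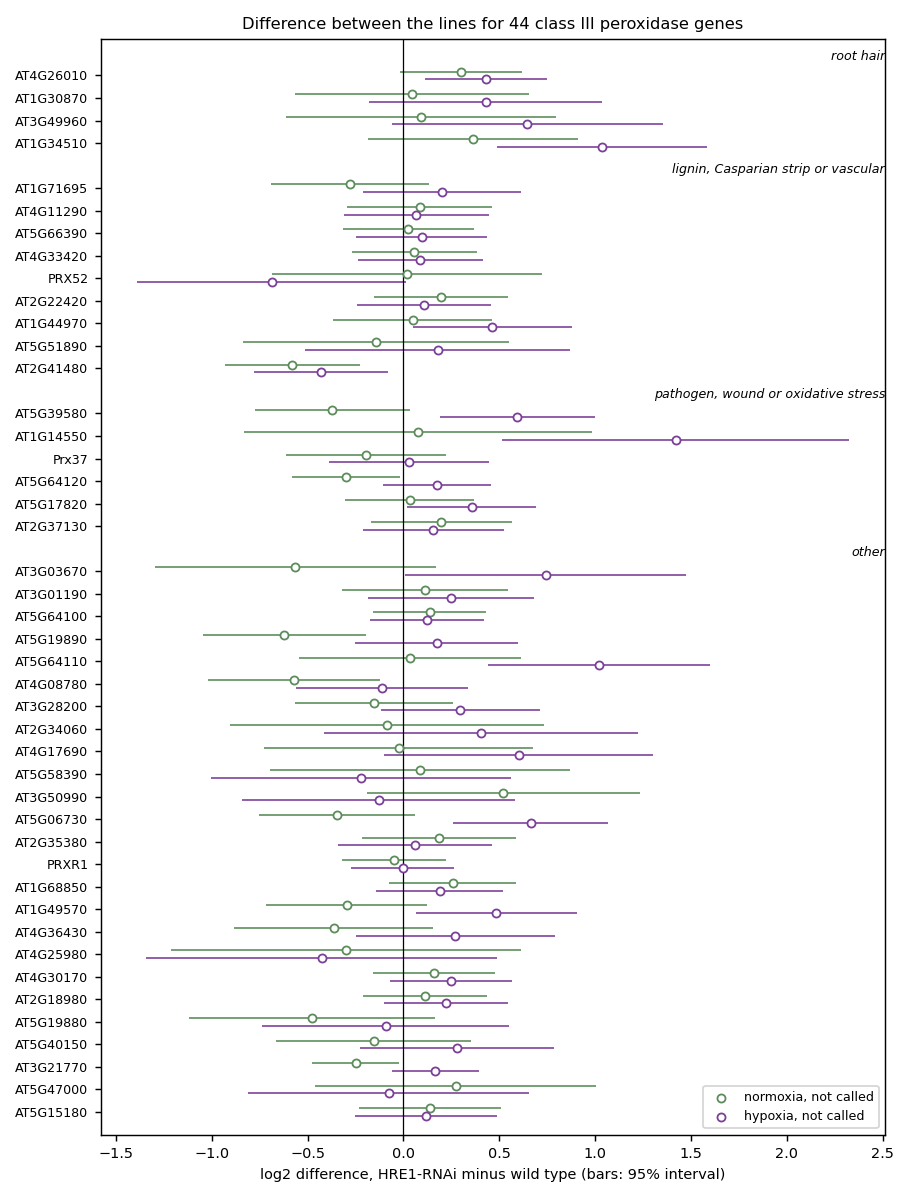
Log2 difference in intensity between HRE1-RNAi and wild type in normoxia (green) and hypoxia (purple) for 44 class III peroxidase genes, by role; bars are 95% intervals, and no point passed an adjusted p below 0.05. In hypoxia 35 of 44 points lie to the right of 0, AT1G14550 farthest at 1.42.

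Genes that supply or share the peroxidase reaction were covered thinly by probe sets with 1 gene. Of the respiratory burst oxidases 3 of 10 were measured and 2 rose in both lines, where 7.20% and 7.51% of all probe sets were called higher. AT4G25090 rose by 1.45 ± 0.18 and 1.33 ± 0.18, and AT4G11230 by 2.30 ± 0.28 and 1.93 ± 0.28, with adjusted p-values between 1.37e-06 and 1.37e-05. Of the extensins, structural wall proteins that peroxidases cross-link, 5 of 9 were measured. Of these 3 were called lower in wild type and 4 in HRE1-RNAi, against 10.6% and 10.7% of all probe sets. HRGP1 had -1.28 ± 0.22 and -0.91 ± 0.22. In HRE1-RNAi the conditions overlapped for every extensin measured. The probe sets of EXT9, HRGP1, EXT8 and EXT15 have names ending in _x_at, and signal from related genes cannot be set aside for them. For monolignol synthesis 2 of 18 were measured: CCR2, a cinnamoyl-CoA reductase, rose by 1.05 ± 0.17 and 0.70 ± 0.17, and HCT, an acyltransferase earlier in the pathway, fell by 0.38 ± 0.13 in wild type (adjusted p = 0.0424) and had -0.35 ± 0.13 in HRE1-RNAi (adjusted p = 0.0617).

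Among the endodermal genes 2 of 10 were measured, and GSO1, a receptor kinase required for a continuous Casparian strip, fell by 0.56 ± 0.18 and 0.65 ± 0.18 (adjusted p = 0.0331 and 0.0124), while AT1G61590 was not called. The 1 laccase of 17 measured, LAC16, was dim and fell in HRE1-RNAi (-1.07 ± 0.34, adjusted p = 0.0288). Its -0.33 ± 0.34 in wild type was not called, and neither was the difference of the responses (-0.74 ± 0.48, adjusted p = 1). Neither of 2 ascorbate peroxidases measured, TAPX and SAPX, nor the 1 of 10 xylem wall genes, GUT2, was called in either line. No suberin gene of 13 and no superoxide dismutase of 7 was measured alone. As a check of the treatment, the fermentation gene PDC2 rose by 2.19 ± 0.24 and 2.01 ± 0.24 and AT3G10040, a regulator of the low-oxygen response, by 3.50 ± 0.17 and 3.33 ± 0.17.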

How the data were processed

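Roots of 16 seedling samples (4 groups of 4) were measured on single-colour Affymetrix arrays. The deposited intensity values, 1 per probe set and array on a linear scale, were made with MAS5 per the submitters' processing notes, with no version given. Of 22810 probe sets, 64 controls were left out and 22746 tested. A probe set takes a gene from the platform's probe table when it lists 1 gene. Coordinates are not printed, since no build is named in the sources used here.

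The deposited intensities were converted to log2(intensity + 16), which understates changes of dim probe sets. The model had 1 mean for each group, 16 arrays and 12 residual degrees of freedom, and was run in R 4.3.3 (limma 3.58.1) with trend and robust moderation. Two-sided p-values were adjusted by Benjamini-Hochberg within each of 5 contrasts over all probe sets. A call is an adjusted p below 0.05, and array measures were compared by exact permutation. The code was tested on simulated data. The number of arrays limits the precision, and p-values measure the spread between samples labelled biological replicates. Values are given per array for the 8 largest called rises and 8 largest called falls with non-overlapping groups, for neighbouring genes, and for AT5G06730, added after its values were seen. Members and gene lists were chosen with earlier results of these data known. Roles come from general knowledge of the family.

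Alternatives changed the pseudocount, scaling, moderation, filter, block, weights, groups in the fit, arrays and the threshold (an adjusted p below 0.01).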

Additional observations from a re-analysis of the deposited data

Results flagged for a closer look

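In 176 groups of 4 arrays (44 genes in 4 groups), 12 held an array whose gap to the nearest other exceeded Dixon's 95% limit, where chance alone gives about 8.8. HRE1-RNAi replicate 4, which also had the lowest array weights, gave 3 of them. These were AT3G03670 in hypoxia (2673.1, others 552.6 to 716.6), AT5G06730 in hypoxia (405.6, others 237.4 to 258.7) and AT5G47000 in normoxia (472.5, others 174.3 to 192.7).

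Wild type replicate 4 gave 4. In normoxia AT3G03670 read 30.9 (others 6.7 to 9.1), AT4G30170 read 8133.0 (others 9515.0 to 9727.5) and AT5G64100 read 4026.9 (others 5214.4 to 5488.7). In hypoxia AT5G64120 read 2240.6 (others 2790.1 to 2897.5).

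The other 5 came from other arrays. In HRE1-RNAi hypoxia AT2G41480 read 93.3 in replicate 1 (others 142.9 to 150.3), AT5G19880 read 8.4 in replicate 1 (others 1.5 to 2.3), AT4G36430 read 2897.1 in replicate 2 (others 1667.3 to 1821.0) and AT5G64120 read 2606.7 in replicate 3 (others 3122.3 to 3232.0). In wild type hypoxia AT4G11290 read 1656.4 in replicate 2 (others 1339.0 to 1379.9).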

How the results depend on the processing

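No call changed direction under any alternative. In wild type the count of peroxidase genes called higher ranged from 10 to 12 and lower from 8 to 15, and in HRE1-RNAi higher from 14 to 16 and lower from 6 to 12. The lows of 10 and 8 came with the stricter threshold, an adjusted p below 0.01. Leaving out single arrays gave 11 to 12, 10 to 13, 14 to 16 and 7 to 12. At an adjusted p below 0.05, 20 of 24 calls in wild type and 20 of 23 in HRE1-RNAi held in every alternative that tested them, which was all 27 except for AT5G47000, tested in 26 because the filter on dim probe sets removed it. The line contrasts stayed at 0 calls, except that 1 gene was called higher in hypoxia without both HRE1-RNAi arrays numbered 4. Centring each array on its median moved the percentage of higher calls among all calls from 40.5% to 53.9% in wild type and from 41.3% to 55.6% in HRE1-RNAi, and the peroxidase genes to 12 higher and 10 lower and to 15 higher and 6 lower. Replicate numbers are shared between groups and do not by themselves pair the arrays. The deviations of same-numbered arrays between conditions correlated at 0.017 to 0.397 in wild type (mean 0.267, against -0.087 for other numbers) and at 0.046 to 0.695 in HRE1-RNAi (mean 0.418, against -0.116), so not every pair was above 0.1. Since deviations are taken from group means, the mean for other numbers tends to the opposite sign of that for same numbers. It is therefore no separate baseline. Of 8 arrays, 6 and 5 correlated best with their own number, a hint from the data. Between the lines same numbers had a mean of 0.033 in normoxia and -0.038 in hypoxia, and 3 and 2 of 8 arrays correlated best with their own number. The block fits below use each number across both lines, so they cannot test a pairing within a line. With the replicate number as a fixed block calls over all probe sets went from 4040 to 4377 and from 4135 to 4476, and AT4G30170 in wild type and AT5G66390 in HRE1-RNAi were called in addition. With this block the counts were 12 higher and 13 lower in wild type and 15 higher and 9 lower in HRE1-RNAi, and as a random block 12 and 12, and 14 and 10, with no line call in either. The planned mean over a gene's probe sets was not run, since each gene had 1. Low intensities limit the 12 dimmer genes, of which 5 were called in wild type.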
